A study of Saccharomyces cerevisiae with 20 samples.

Results

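10 yeast genes at or beside the marker loci named in the strains' genotypes were followed across 5 strains of Saccharomyces cerevisiae, of the 7127 genes in the table. They were chosen by name from the genotype labels and gene order. LEU2, MET17 and HO are themselves deleted or replaced in at least 1 strain. NFS1 lies beside LEU2, STT4 near MET17, GCS1 beside HO, GEA2 beside URA3, MRM1 and DED1 on either side of HIS3, and SOK1 beside TRP1. All 10 passed the filter on low counts. The question was whether a deleted or mutated marker is accompanied by a changed level of the adjacent genes.

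Marker genes such as LEU2, URA3, HIS3, TRP1 and MET17 encode enzymes that make an amino acid or a nucleotide base, so a strain that lacks one must be fed the product, and a plasmid or cassette carrying the gene can be selected. HO encodes the endonuclease that starts mating-type switching, and strains without it keep 1 mating type. The yeast genome is compact: promoters and terminators of adjacent genes lie close together, and a deletion at a marker locus can reach sequence that the next gene uses.

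BY4741 (MATa) carries leu2Delta0, ura3Delta0, met15Delta0 and his3Delta1, where MET15 is another name of MET17. RM11-1a (MATa) carries HO::kanMX, in which a drug-resistance cassette replaces HO, with ura3Delta0 and leu2Delta0. CEN.PK2 (MATa) carries ura3-52, leu2-3_112, his3Delta1 and trp1-289, with SUC2 and MAL2-8c. W303 (MATa) carries his3-11,15, ura3-1, trp1-1 and can1-100, with the leu2 allele that the CEN.PK2 label spells leu2-3_112. D273-10B (MATAlpha) is labelled mal and with no marker allele. Each strain was grown in synthetic complete medium with glucose at 30 °C to early exponential phase, untreated, and gave 4 libraries from total RNA, made by amplifying full-length cDNA. The labels do not say that the 4 libraries came from separate cultures, so p-values measure only the spread between these samples, which may be technical.

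The alleles do not vary independently of the strain. leu2Delta0 and ura3Delta0 occur in the same pair of strains, BY4741 and RM11-1a, so those loci share 1 comparison, and their effects cannot be told apart from each other or from anything else that sets these strains apart. MET17 is deleted in BY4741 alone and HO in RM11-1a alone, so there the allele and the strain cannot be told apart either. The comparison for HIS3 set the his3Delta1 strains, BY4741 and CEN.PK2, against the other 3, and that for TRP1 set CEN.PK2 and W303 against the other 3.

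Library totals ran from 1311322 to 22979469 counts. The mating types in the labels were checked against mating genes, which cannot tell the MATa strains from each other. MF(ALPHA)1 stood at 2300 to 7030 CPM (counts scaled to equal library totals) in the alpha strain D273-10B. The other 16 libraries had 0.818 to 5.09. Of the genes checked only BAR1, expressed in a cells, overlapped, at 2.77 to 50.6 in D273-10B against 16 to 137. The library labelled RM11-1a replicate 2 went against its HO::kanMX label, with 408 HO counts while the other RM11-1a libraries held 1 or 2. The RM11-1a libraries, labelled ura3Delta0, also held URA3 reads, 102, 75, 11 and 9 counts, of which the first 2 lie furthest above the floor of 3 counts, and URA3 reads were present in BY4741 too. Many comparisons in which RM11-1a is a carrier or 1 of the pair are given with and without replicate 2. Comparisons of RM11-1a with no second value include that library. Libraries also differed in how counts fell with gene length: the slope of log2 level on log2 length, relative to all libraries, was -0.33 to -0.09 in RM11-1a and -0.07 to 0.24 in BY4741.

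**Figure D1:**
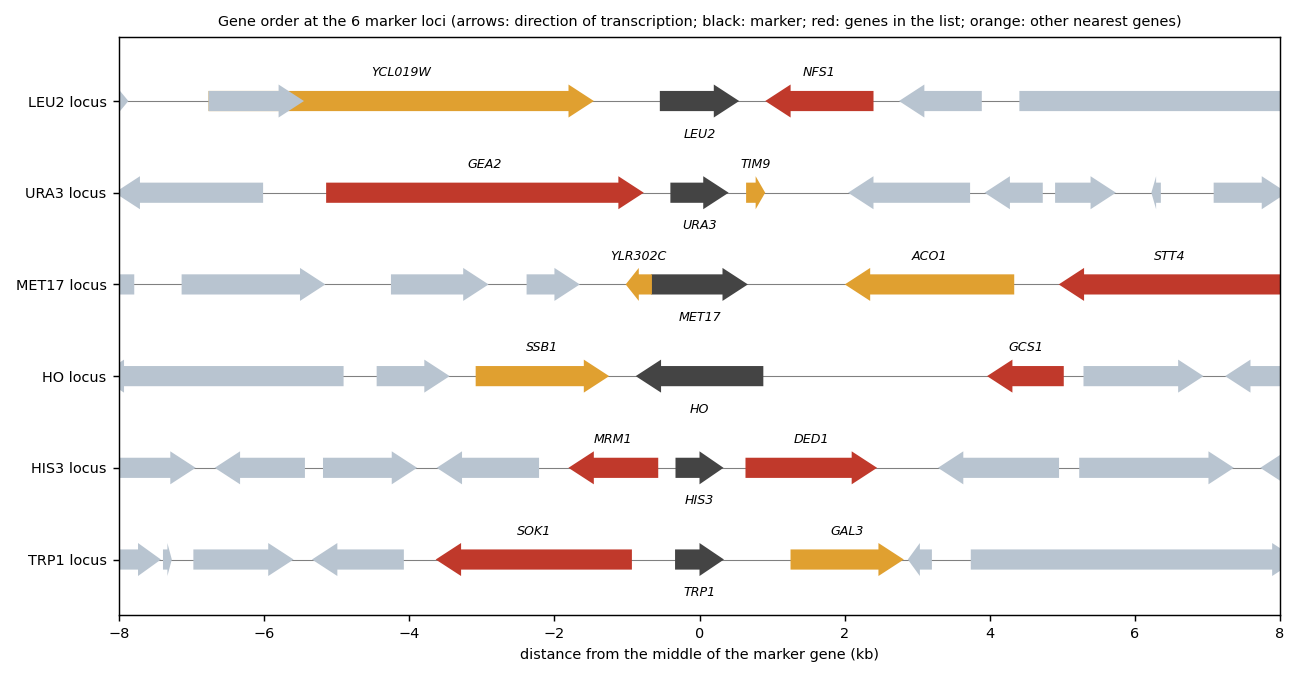
Gene order at the 6 marker loci in the R64 reference, drawn to scale with distance in kb from the middle of the marker gene and arrows in the direction of transcription. Markers are black, the neighbours described are red, other nearest genes are orange. GCS1 and STT4 lie 3.083 and 4.284 kb from their markers, the other listed neighbours within 0.6 kb.

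Positions are those of the R64 reference genome in the RefSeq annotation and were assigned by systematic name, because the files carry gene identifiers only. LEU2 (YCL018W) is at chrIII:91324-92418 on the plus strand, and NFS1 (YCL017C) at chrIII:92777-94270 faces it, with 0.358 kb between their ends. GEA2 (YEL022W, chrV:111421-115800) ends 0.366 kb before URA3 (chrV:116167-116970), and TIM9 (YEL020W-A, chrV:117211-117474) begins 0.240 kb after it, all 3 on the plus strand. MET17 (YLR303W, chrXII:732542-733876) is separated from STT4 (YLR305C, chrXII:738161-743863) by 4.284 kb that contain ACO1. HO (YDL227C, chrIV:46271-48031) and GCS1 (YDL226C, chrIV:51115-52173) both lie on the minus strand, 3.083 kb apart. MRM1 (YOR201C, chrXV:720470-721708) is divergent from HIS3 (chrXV:721946-722608) across 0.237 kb, and DED1 (YOR204W, chrXV:722911-724725) starts 0.302 kb beyond HIS3 in the same direction. SOK1 (YDR006C, chrIV:458542-461247) is divergent from TRP1 (chrIV:461842-462516) across 0.594 kb.

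3 of the short intervals are shown because each lies between a marker and the start of a neighbour or of the marker itself. They are reference sequence of R64, plus strand, not the strains' own. Capitals mark matches, on either strand, to the promoter element TATAAA, bound by the general factor TBP, or to the element TGACTC, the core bound by the starvation activator Gcn4. The intervals are MRM1 to HIS3 (chrXV:721709-721945), URA3 to TIM9 (chrV:116971-117210) and the 250 bases before DED1 (chrXV:722661-722910).
MRM1 to HIS3: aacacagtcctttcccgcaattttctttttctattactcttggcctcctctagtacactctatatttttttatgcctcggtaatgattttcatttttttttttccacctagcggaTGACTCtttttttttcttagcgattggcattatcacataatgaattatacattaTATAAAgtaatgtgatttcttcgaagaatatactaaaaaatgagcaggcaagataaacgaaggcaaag
URA3 to TIM9: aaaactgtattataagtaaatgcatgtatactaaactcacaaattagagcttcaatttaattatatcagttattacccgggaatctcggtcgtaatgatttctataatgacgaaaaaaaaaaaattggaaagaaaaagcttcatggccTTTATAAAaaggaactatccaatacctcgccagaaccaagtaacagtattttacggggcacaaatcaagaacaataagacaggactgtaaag
upstream of DED1: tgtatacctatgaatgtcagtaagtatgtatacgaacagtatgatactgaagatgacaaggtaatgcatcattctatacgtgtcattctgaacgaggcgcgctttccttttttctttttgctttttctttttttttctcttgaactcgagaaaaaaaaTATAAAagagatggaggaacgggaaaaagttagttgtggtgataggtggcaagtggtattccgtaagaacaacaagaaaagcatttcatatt
The interval shared by MRM1 and HIS3 holds 1 TGACTC, found in 5.9% of 6020 upstream windows of that length, and 1 TATAAA, found in 42.2%. The interval between URA3 and TIM9 holds a TATAAA on each strand, overlapping by 4 bases, and TATAAA occurs in 42.5% of upstream windows of its length. The window before DED1 holds 1 TATAAA, found in 43.6% of such windows.

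**Figure D2:**
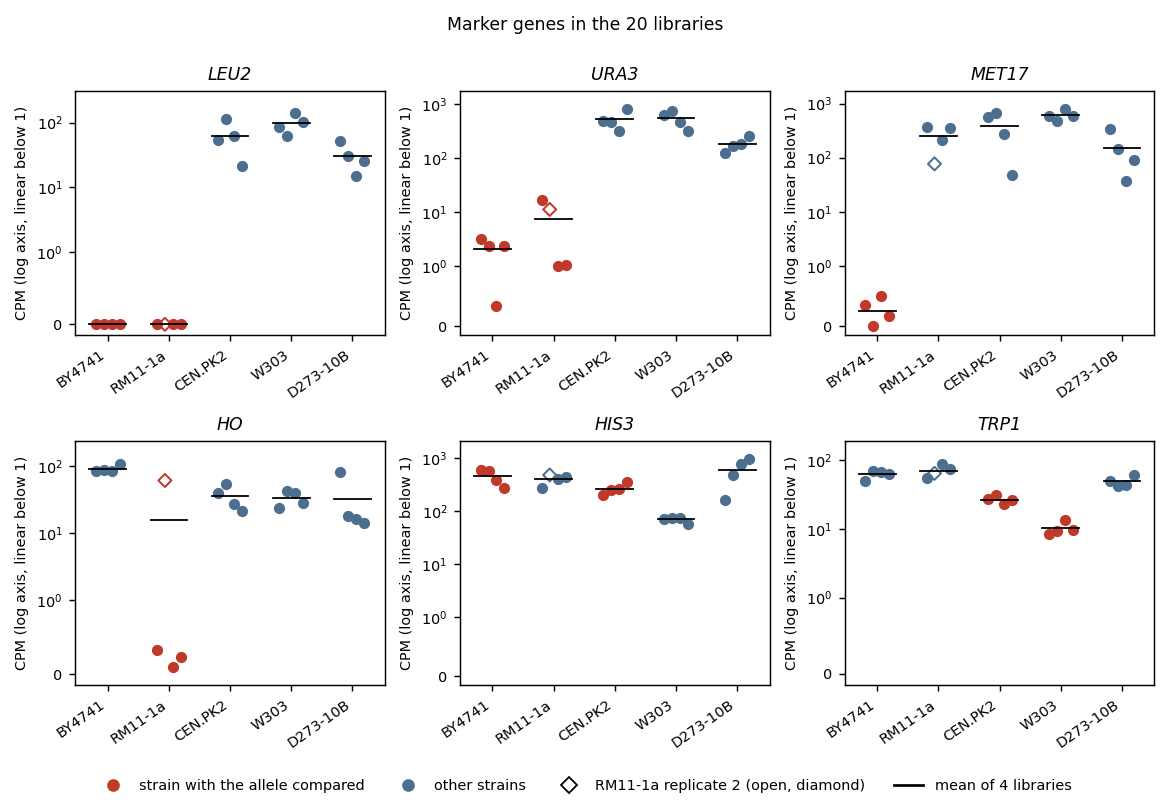
CPM of the 6 marker genes in all 20 libraries, on an axis that is logarithmic above 1 and linear below. Points are libraries (red: strain with the allele compared; blue: other strains; open diamond: RM11-1a replicate 2) and bars are means of 4. LEU2 is at 0 in all 8 BY4741 and RM11-1a libraries, MET17 is at most 0.505 CPM in BY4741, and TRP1 is at 8.49 to 31.3 CPM in the strains with a trp1 allele.

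LEU2, MET17 and HO, the genes removed, were at or near 0 in the strains labelled as lacking them, apart from HO in 1 RM11-1a library, while the strains with other named leu2 and trp1 alleles had measurable LEU2 and TRP1 transcripts. Tests used edgeR's quasi-likelihood model across all 6119 genes that passed the filter, with Benjamini-Hochberg adjustment over them. In bulk cultures, fewer cells with a transcript and less of it per cell cannot be told apart.

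LEU2, the 3-isopropylmalate dehydrogenase of leucine synthesis, had 0 counts in all 4 BY4741 and all 4 RM11-1a libraries. W303 gave 85.7, 61.1, 141 and 101 CPM. D273-10B gave 51.3, 30.6, 14.7 and 25.9, and CEN.PK2 gave 54.4, 114, 62.1 and 21.6. The groups did not overlap. Against the mean of the 12 other libraries (63.6 ± 39.6 CPM, SD), a floor of 3 counts in the smallest library puts LEU2 at least 53.1-fold lower in BY4741, and for RM11-1a the bound is at least 130-fold (edgeR adjusted p = 5.26e-09). In that comparison 15.7% of the genes tested were called, and 1.01% had groups that did not overlap. Without RM11-1a replicate 2 the edgeR adjusted p for LEU2 was 8.96e-09. Floors and intervals on counts cover counting error only, since reads carry no molecular identifiers. CEN.PK2 and W303, whose leu2 allele is another one, thus still had LEU2 reads, and W303 exceeded D273-10B, which carries no leu2 allele, by 1.47 on the log2 scale (SE 0.375, edgeR adjusted p = 0.0244). In that pair 10.6% of genes were called.

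MET17, which makes homocysteine from O-acetylhomoserine and sulfide, had 1, 0, 3 and 2 counts in the BY4741 libraries. W303 gave 590, 480, 787 and 578 CPM and CEN.PK2 gave 573, 667, 276 and 47.1. RM11-1a gave 372, 76.9, 211 and 360, and D273-10B gave 338, 144, 37.4 and 90.5. BY4741 did not overlap the other strains, as for 0.964% of all genes. MET17 in BY4741 was at least 294-fold lower than their mean of 352 ± 240 CPM (SD, n = 16, edgeR adjusted p = 1.52e-06), in a comparison where 4.84% of genes were called. Among the strains with the gene, W303 exceeded D273-10B by 1.89 (log2, edgeR adjusted p = 0.0436), as it did for LEU2. YLR302C, an open reading frame that overlaps MET17 on the opposite strand, was too low to test, at most 0.0827 CPM in BY4741 and 0 to 2.65 elsewhere, and reads of the pair cannot be told apart without strand.

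HO stood at 0.327, 60.9, 0.0926 and 0.234 CPM in RM11-1a. BY4741 gave 84.3, 87.8, 85.3 and 109, and W303 gave 23.8, 43.0, 39.6 and 27.7. D273-10B gave 81.9, 18.1, 16.1 and 14.3, and CEN.PK2 gave 39.2, 54.1, 26.8 and 20.9. RM11-1a replicate 2 lay within the range of the strains with the gene and the other 3 lay below every other library. With that library the difference was -1.51 on the log2 scale (SE 0.911, edgeR adjusted p = 0.306), and 10.9% of genes were called. Without it RM11-1a was at least 98.5-fold below the others for HO (edgeR adjusted p = 9.09e-09).

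Leaving out that library also changed the calls among the strains with no HO allele in their labels. Reads do not show whether their HO gene works. All BY4741 values lay above those of the other strains. BY4741 and the rest did not overlap, in either direction, for 0.964% of all genes. Without RM11-1a replicate 2 the edgeR adjusted p for CEN.PK2, D273-10B and W303 against BY4741 was 0.0489, 0.0120 and 0.0321, with log2 differences of -1.19, -1.45 and -1.49. In those pairs 7.57%, 15.4% and 2.40% of genes were called. With that library the log2 differences were nearly the same, at -1.19, -1.45 and -1.49, and none was called. With it, HO was not called for any difference among the 5 strains (edgeR adjusted p = 0.306, against 8.03e-08 without it). The test without it still takes in RM11-1a, at -8.74 from BY4741 on the log2 scale. So it is not a test of the strains with no HO allele in their labels.

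The URA3, HIS3 and TRP1 transcripts set the scale for their neighbours. URA3, the last decarboxylase of uracil synthesis, was at 0.337 to 3.16 CPM in BY4741 and 1.02 to 16.7 in RM11-1a, against means of 540 ± 189 in W303, 520 ± 205 in CEN.PK2 and 181 ± 52.9 in D273-10B (SD, n = 4 each). TRP1, an isomerase of tryptophan synthesis, was lower in the trp1 strains by -1.84 (log2, SE 0.179, edgeR adjusted p = 1.41e-06), where 7.08% of genes were called and 0.229% had groups without overlap, as TRP1 did. HIS3, a dehydratase of histidine synthesis, averaged 457 ± 155 CPM in BY4741 and 268 ± 62.9 in CEN.PK2, both with his3Delta1, while W303 with his3-11,15 stood at 70.3 ± 8.67 (SD, n = 4 each). So the HIS3 neighbours were compared between strains whose HIS3 read counts did not differ past the threshold (log2 difference 0.49, SE 0.297, edgeR adjusted p = 0.508).

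**Figure D3:**
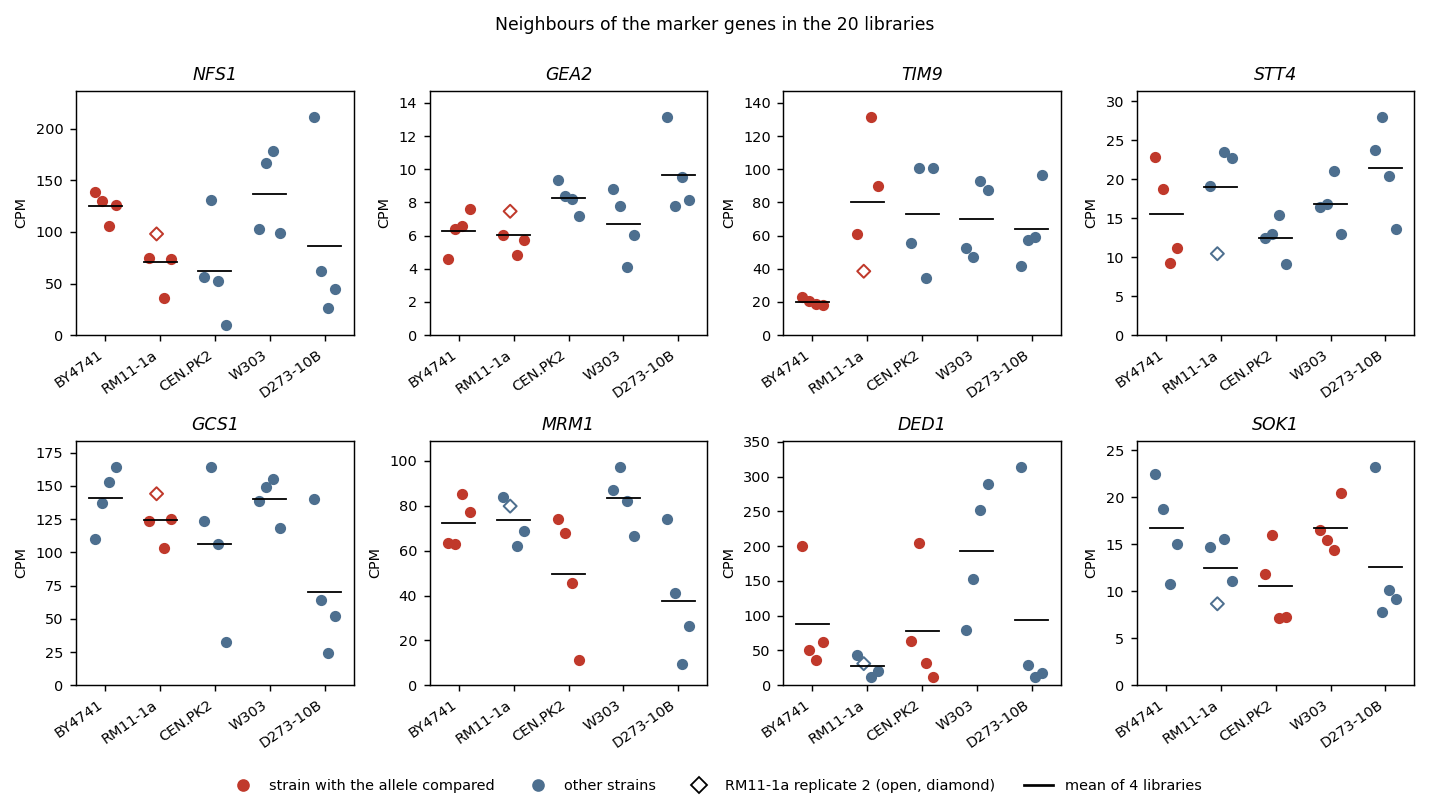
CPM of the 7 listed neighbours and TIM9 in the 20 libraries, linear axes from 0. Points are libraries (red: strain with the allele compared at that locus; blue: others; open diamond: RM11-1a replicate 2) and bars are means of 4. The BY4741 libraries for TIM9 lie at 18.0 to 23.2 CPM, below the other 16, while for the 7 listed neighbours red and blue points overlap.

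1 of the 7 listed neighbours, GEA2, passed the test in the comparison of its locus, where 15.7% of all genes were called. In the other locus comparisons 2.73% to 10.9% of all genes were called. GEA2 was also the only one of the 7 called for any difference among the 5 strains. In that test 28.4% of all genes were called. Between single pairs of strains, 3 of 70 tests of these neighbours (4.29%) were called, GEA2 in 2 pairs and DED1 in 1, where 8.38% of the tests of all genes over the 10 pairs were. With each library's trend on gene length as an offset, 6 of 70 were called, STT4 and GCS1 in 2 pairs each and MRM1 and DED1 in 1 each, where 11.6% of the tests of all genes were. A neighbour that missed the threshold is not thereby shown to be the same, so the interval of each difference is given.

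At the URA3 locus the gene on each side was called. GEA2 had low values in both ura3Delta0 strains, with means of 6.28 CPM in BY4741 and 6.01 in RM11-1a. W303, which is labelled ura3-1, was nearly as low, at 6.69. TIM9 had low values in BY4741 and not in RM11-1a. GEA2, an exchange factor that activates Arf GTPases at the Golgi, stood at 4.57, 6.38, 6.56 and 7.60 CPM in BY4741 and at 6.04, 7.46, 4.82 and 5.73 in RM11-1a. D273-10B gave 13.2, 7.77, 9.53 and 8.14, CEN.PK2 gave 9.33, 8.39, 8.22 and 7.16, and W303 gave 8.83, 7.79, 4.11 and 6.02. The carriers' values fell in the lower part of the range but overlapped the others, with 2 W303 libraries and 1 CEN.PK2 library below the highest carrier. The means were 6.15 ± 1.10 (SD, n = 8) and 8.20 ± 2.15 CPM (SD, n = 12). The difference was -0.57 on the log2 scale (SE 0.172, 95% interval -0.93 to -0.21, edgeR adjusted p = 0.0301), beside a median of -0.11 over all genes tested. In this comparison 15.7% of all genes were called. Without RM11-1a replicate 2 the GEA2 difference was -0.63 (SE 0.180, adjusted p = 0.0241), where 13.9% of genes were called.

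The lower GEA2 level rested on a small difference with a narrow spread, and it was not held by every analysis. It was called in 14 of the 20 fits that left out 1 library. The call was lost without BY4741 replicate 1 (adjusted p = 0.0582) or 2 (0.0506), without RM11-1a replicate 1 (0.0607), 3 (0.0683) or 4 (0.0652), and without W303 replicate 1 (0.0604). GEA2 is long, at 4380 bases, and with each library's trend on gene length as an offset the difference was -0.0016 (adjusted p = 0.995). By pairs, D273-10B exceeded BY4741 by 0.82 (SE 0.265, edgeR adjusted p = 0.0426) and RM11-1a was lower than D273-10B by -0.90 (SE 0.260, adjusted p = 0.0213). In those pairs 14.5% and 18.4% of genes were called. Without RM11-1a replicate 2 the second was -1.03 (adjusted p = 0.0163). With the length offset both pair calls were lost, at 0.31 (adjusted p = 0.462) and 0.11 (adjusted p = 0.800), the latter with its sign turned, and so was the call for any difference among the strains (adjusted p = 0.269). RM11-1a minus BY4741 was -0.08 (adjusted p = 0.916), or -0.22 (adjusted p = 0.704) without replicate 2. W303, which has no ura3Delta0 label, was not called against either carrier. It exceeded BY4741 by 0.09 (edgeR adjusted p = 0.899) and RM11-1a by 0.17 (edgeR adjusted p = 0.708).

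TIM9, on the other side of URA3, encodes a small chaperone of the mitochondrial intermembrane space. It is not among the 10 genes and was examined as the nearest gene downstream. It stood at 23.2, 20.7, 18.5 and 18.0 CPM in BY4741, but at 60.8, 38.5, 132 and 89.7 in RM11-1a, which carries the same allele name. CEN.PK2 gave 55.3, 101, 34.2 and 101, D273-10B 41.7, 57.3, 59.3 and 96.7, and W303 52.6, 47.0, 93.0 and 87.2. The 4 BY4741 libraries lay below all other 16, and RM11-1a lay within the range of the strains with no ura3Delta0 label, apart from replicate 3 above it. Over both carriers, where 15.7% of all genes were called, the difference was -0.99 (log2, SE 0.287, edgeR adjusted p = 0.0249). Without RM11-1a replicate 2 it was -0.87 (adjusted p = 0.0488). The call was lost without BY4741 replicate 3 (0.0514) or 4 (0.0539) or RM11-1a replicate 1 (0.0577), and against D273-10B only (0.0518).

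The carriers themselves differed at TIM9. RM11-1a exceeded BY4741 by 1.99 (log2, SE 0.449, edgeR adjusted p = 0.0135) in a pair where 5.47% of genes were called. Without RM11-1a replicate 2 the difference was 2.21 (adjusted p = 0.00212), and without replicate 3 it was 1.65 and not called (adjusted p = 0.0732). Set against the other 4 strains together, BY4741 differed by -1.98 (SE 0.395, adjusted p = 0.00715). That call held in all 20 fits that left out 1 library and in the 7 other alternatives, with -1.47 under the length offset. That the groups do not overlap is shared by 0.964% of genes in BY4741 against the rest. BY4741 was chosen for this comparison after its values were seen. For GEA2, upstream of URA3, the same pair of strains was not called.

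Library series, the first digits of the library number in the labels, split the samples further. Within series 66, GEA2 in the carriers stood at 6.04 to 7.60 CPM against 7.79 to 13.2 in the others, without overlap, as for 15.0% of all genes there. The difference was -0.46 (SE 0.180, edgeR adjusted p = 0.103), where 19.7% of genes were called. Within series 69, with BY4741 as the only carrier, it was -0.64 (SE 0.380, adjusted p = 0.386), where 3.53% of genes were called. TIM9 in BY4741 against the other strains was -1.37 (adjusted p = 0.0789) within series 66, where 0.566% of genes were called, and -1.97 (adjusted p = 0.0265) within series 69. The direction was thus the same in both series, and the call was not reached by GEA2 in either.

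Beside LEU2, the cysteine desulfurase gene NFS1, needed to build iron-sulfur clusters, was not called for a difference with the LEU2 deletion. It stood at 139, 130, 106 and 126 CPM in BY4741 and at 75.0, 98.1, 36.1 and 73.7 in RM11-1a. W303 ranged from 99.2 to 179, D273-10B from 25.9 to 212 and CEN.PK2 from 9.80 to 131. The carriers sat inside the range of the others. Their means were 97.9 ± 34.7 (SD, n = 8) and 95.1 ± 64.7 CPM (SD, n = 12), and the difference was 0.04 (log2, SE 0.311, 95% interval -0.60 to 0.69, edgeR adjusted p = 0.942). Without RM11-1a replicate 2 it was -0.06 (adjusted p = 0.920).

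Near MET17, STT4, a phosphatidylinositol 4-kinase of the plasma membrane, stood at 22.8, 18.7, 9.26 and 11.2 CPM in BY4741. D273-10B ranged from 13.7 to 28, RM11-1a from 10.5 to 23.4, W303 from 13.0 to 21.1 and CEN.PK2 from 9.18 to 15.4. The BY4741 libraries spread over most of that range. The difference was -0.29 (log2, SE 0.248, 95% interval -0.81 to 0.22, edgeR adjusted p = 0.519). ACO1, the aconitase gene that lies between, differed by 0.25 (SE 0.387, 95% interval -0.55 to 1.06, adjusted p = 0.744). STT4 is also long. With the length offset it was called for a difference among the strains (edgeR adjusted p = 0.00909, against 0.174 without the offset). That test called 37.1% of all genes with the offset and 28.4% without it. With the offset RM11-1a exceeded BY4741 in STT4 by 1.17 (adjusted p = 0.0202) and CEN.PK2 by 1.33 (adjusted p = 0.00574). In those pairs 8.58% and 13.7% of genes were called. Without RM11-1a replicate 2 the differences were 1.44 (adjusted p = 0.00018) and 1.61 (adjusted p = 5.26e-05). The comparison of the MET17 locus was not called for STT4 with the offset (-0.42, adjusted p = 0.288).

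Beside HO, GCS1, which switches off Arf GTPases, stood at 124, 144, 103 and 125 CPM in RM11-1a. BY4741 ranged from 110 to 164, W303 from 118 to 155, CEN.PK2 from 32.2 to 164 and D273-10B from 24.1 to 140. RM11-1a lay in the middle of these ranges. The difference was 0.12 (log2, SE 0.267, 95% interval -0.44 to 0.67, edgeR adjusted p = 0.818), and 0.02 (adjusted p = 0.967) without replicate 2. For GCS1 that library was the highest of its strain, at 144 CPM, within the range of the other strains. SSB1, a ribosome-bound Hsp70 chaperone gene on the other side of HO, differed by -0.72 (SE 0.548, 95% interval -1.86 to 0.43, adjusted p = 0.429), and by -0.72 (adjusted p = 0.492) without RM11-1a replicate 2. Of its 75-base windows, 36.3% occur elsewhere in the genome, so its counts are uncertain.

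The genes on either side of HIS3 were not called for a difference with his3Delta1. MRM1, a methyltransferase of mitochondrial ribosomal RNA, stood at 63.6, 63.0, 85.2 and 77.4 CPM in BY4741 and at 73.9, 67.9, 45.8 and 11.2 in CEN.PK2. W303 ranged from 66.7 to 97.3, RM11-1a from 62.1 to 84.1 and D273-10B from 9.36 to 74.2. Carriers and others covered nearly the same range, and the difference was 0.02 (log2, SE 0.261, 95% interval -0.53 to 0.56, edgeR adjusted p = 0.992). In this comparison 2.73% of genes were called. MRM1 shares its upstream interval, printed above, with HIS3. W303, whose HIS3 level was the lowest of the 5 strains, had the highest mean of MRM1, 83.3 ± 12.7 CPM (SD, n = 4). MRM1 was not called for any difference among the 5 strains (edgeR adjusted p = 0.238).

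DED1, an RNA helicase of translation initiation, spread widely within strains. BY4741 gave 200, 50.7, 36.9 and 62.5 CPM, CEN.PK2 gave 63.7, 204, 32.6 and 12.1, and D273-10B gave 314, 29.4, 12.4 and 17.3. RM11-1a gave 43.6, 31.1, 12.4 and 21.1 and W303 79.7, 153, 251 and 289. All W303 values were above all RM11-1a values, and the other strains spanned both. The difference with his3Delta1 was 0.09 (log2, SE 0.507, 95% interval -0.97 to 1.14, edgeR adjusted p = 0.971), the second widest of the nearest genes after SSB1. W303 exceeded RM11-1a by 2.79 (SE 0.838, adjusted p = 0.0362) in a pair where 10.9% of genes were called, and by 2.87 without RM11-1a replicate 2 (adjusted p = 0.0548).

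SOK1, known for relieving loss of the cAMP-dependent protein kinase when in high copy, stood at 11.9, 16, 7.10 and 7.23 CPM in CEN.PK2 and at 16.4, 15.5, 14.4 and 20.5 in W303. BY4741 ranged from 10.8 to 22.5, RM11-1a from 8.66 to 15.6 and D273-10B from 7.77 to 23.2. The 2 strains with a trp1 allele had means of 10.6 ± 4.26 and 16.7 ± 2.65 CPM, the lowest and the second highest of the 5 (SD, n = 4 each). Together they differed from the others by -0.02 (log2, SE 0.185, 95% interval -0.40 to 0.37, edgeR adjusted p = 0.974). On the other side of TRP1 the galactose sensor gene GAL3 differed by 0.48 (SE 0.419, 95% interval -0.39 to 1.35, adjusted p = 0.554). GAL3 was called for a difference among the 5 strains (adjusted p = 0.00306), with D273-10B at 7.83, 59.4, 49.2 and 3.74 CPM.

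**Figure D4:**
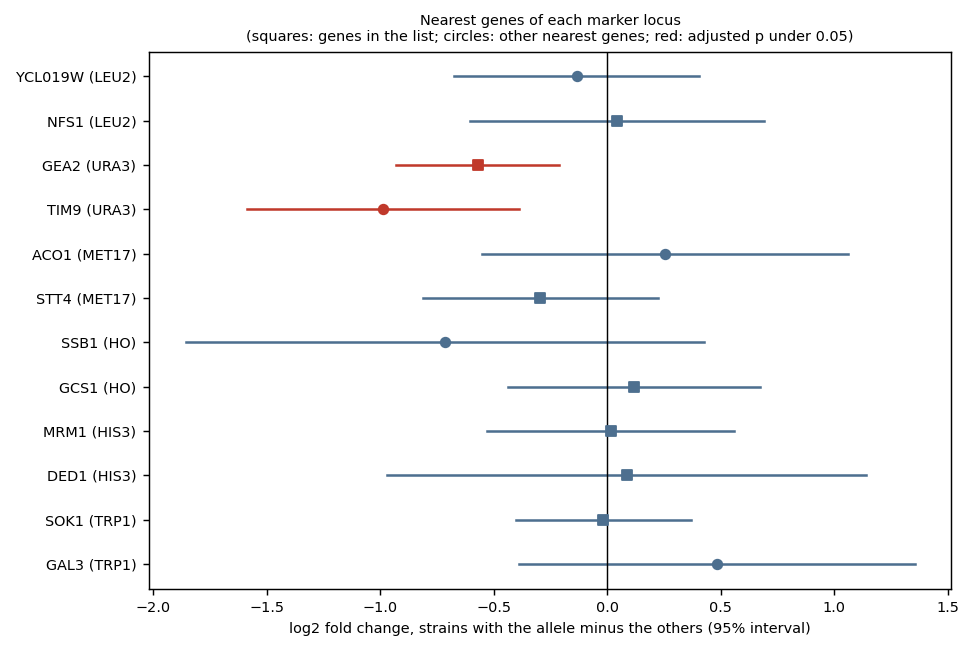
Log2 fold change of the nearest genes of each locus, strains with the allele minus the others, with 95% intervals (squares: listed neighbours; circles: other nearest genes; red: adjusted p under 0.05). GEA2 at -0.57 and TIM9 at -0.99, the genes flanking URA3, are the only intervals drawn in red, and DED1, SSB1 and GAL3 have the widest.

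With the nearest genes included, 57 genes lay within 10 kb of a marker and passed the filter, and 4 were called. Over the locus comparisons the share of all genes called ran from 2.73% to 15.7%. At URA3 2 of 11 were called, GEA2 and TIM9, both lower, where 8.96% of all genes were called lower. At MET17 1 of 8 was called lower, YLR297W at -1.43 (log2, SE 0.402, edgeR adjusted p = 0.0434), where 2.58% of all genes were. It stood at 8.43 to 10.8 CPM in BY4741 and 10.7 to 110 in the others, and its call was lost in 13 of the 20 fits that left out 1 library, among them each one without a BY4741 library (adjusted p = 0.0990 to 0.147). At TRP1 1 of 10 was called, the ribosomal protein gene RPL4B at 0.78 (SE 0.172, adjusted p = 0.00803). It has a near-identical paralog, RPL4A, and 62.2% of its 75-base windows occur elsewhere in the genome, so its counts are uncertain.

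No gene was called at LEU2 (0 of 8, 2 at an unadjusted p under 0.05), HO (0 of 10, 1 unadjusted) or HIS3 (0 of 10, 0 unadjusted) by edgeR. DESeq2 called 1 at LEU2. The median log2 fold change of the flanking genes was -0.01 at LEU2 and -0.09 at URA3, beside -0.11 for all genes in that comparison. It was -0.27 at MET17 beside -0.04, 0.01 at HO beside -0.09, 0.02 at HIS3 beside -0.03, and -0.18 at TRP1 beside 4e-04.

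**Figure D5:**
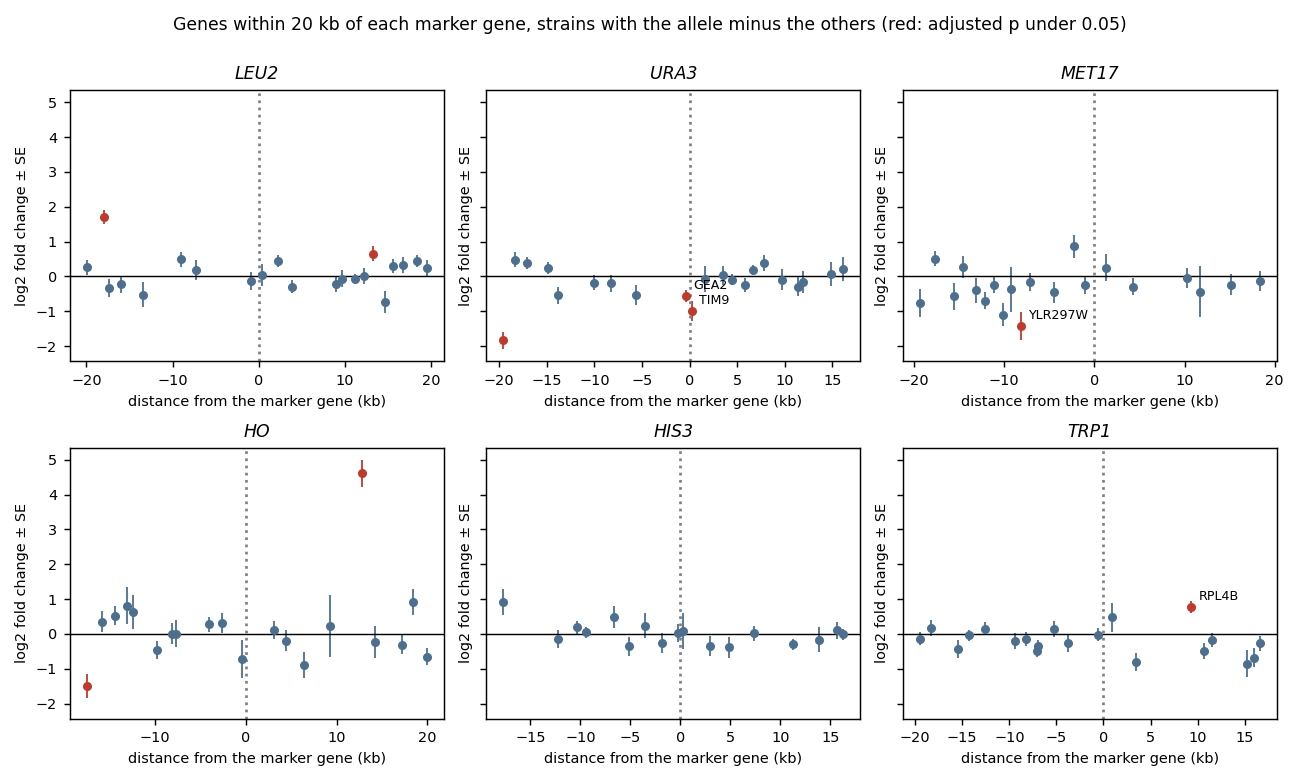
Log2 fold change ± SE of genes within 20 kb of each marker against distance from it in kb, strains with the allele minus the others (red: adjusted p under 0.05; calls within 10 kb are named). The 2 red points next to a marker, GEA2 and TIM9, are at URA3, and genes within 5 kb of the other 5 markers are all blue.

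Set on 1 scale, the neighbours spanned a wide range of abundance. In mean CPM per kb of gene length by strain, GCS1 was at 66.4 to 133, NFS1 at 41.8 to 91.7, MRM1 at 30.5 to 67.2 and DED1 at 14.9 to 106. SOK1 at 3.90 to 6.19, STT4 at 2.19 to 3.77 and GEA2 at 1.37 to 2.2 were low. TIM9 was at 76.2 to 304. CEN.PK2 replicate 4 was the lowest CEN.PK2 library for 9 of the 10 genes. It also had the most negative length slope of the 20 libraries, -0.34, and the part of that in these values was not tested.

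Genes with the most similar profile were sought by Pearson correlation of log2 CPM over the 20 libraries, which share depth and length trends, so these are descriptions. URA3 was closest to LEU2 (r = 0.941). BDS1 was closest to HO (0.976), MAM33 to MET17 (0.890), HTS1 to NFS1 (0.973), PMT1 to DED1 (0.976), MTM1 to GCS1 (0.964) and BUD17 to MRM1 (0.962). The low genes had weaker partners, with GIS1 for STT4 (0.877), CRR1 for GEA2 (0.841) and NUP120 for SOK1 (0.768). The marker of each locus and the genes within 10 kb of it were left out of this search. So the search cannot tell whether a neighbour follows the gene it adjoins.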

How the data were processed

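The authors deposited 1 table of raw counts of reads per gene for 7127 genes and 20 libraries, with no normalization. Per the labels' protocols, libraries followed Smart-seq2 and were read as 75-base single-end reads. Per the submitters' processing notes, the tools were STAR and Salmon, with no versions or roles. The header names Ensembl gene identifiers. Genome build and use of strand are not given in the sources used here. Columns were matched to samples by library number, and 0 were unused. Replicate numbers are those of the titles.

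The test was edgeR's (version 4.0.16, R 4.3.3). Filtering by filterByExpr per strain left 6119 genes. After TMM scaling, 1 model with a mean per strain, fitted by quasi-likelihood with 15 residual degrees of freedom, gave 5 locus comparisons, the 10 pairs of strains and the test of any difference. In a locus comparison strains weigh equally. P-values were adjusted by Benjamini-Hochberg over all genes kept, threshold 0.05. The model was tested on simulated data.

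Alternatives were DESeq2 size factors, DESeq2 1.42.0, no filter, a mean of at least 10 CPM, the replicate number or library series as a block, a length trend as offset, D273-10B as the only reference, W303 counted with the his3 carriers, windows of 5 and 20 kb, and each library left out. Fits within a library series, those for TIM9 in BY4741, and the length offset for pairs of strains were added after seeing the data. The floor was 3 counts in the smallest library of a group. Symbols and positions came from the RefSeq annotation of R64, which matched 6047 identifiers. Genes named are the 10, the markers, the nearest gene on each side, called genes within 10 kb, and for each of the 10 the gene with the highest correlation. The members and lists were chosen with earlier results of these data known.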

Additional observations from a re-analysis of the deposited data

Results flagged for a closer look

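6 of 50 groups of 4 libraries had 1 library far from the other 3, where chance gives about 1 in 20 for independent groups. These groups share libraries and are not independent. HO in RM11-1a replicate 2 was at 60.9 CPM, with a 95% Wilson interval of 55.3 to 67.1 on its counts, against 0.0926 to 0.327 in the other RM11-1a libraries. HO in BY4741 replicate 4 was at 109 CPM against 84.3 to 87.8. D273-10B replicate 1 stood apart for 3 genes: HO at 81.9 CPM against 14.3 to 18.1, DED1 at 314 against 12.4 to 29.4, and SOK1 at 23.2 against 7.77 to 10.1. That library was the only one of its strain in series 66. It had the highest length slope of all libraries, 0.43, and the part of either in these values was not tested. DED1 in BY4741 replicate 1 was at 200 CPM against 36.9 to 62.5.

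2 genes differed between strains that carry an allele at the same locus. TIM9, downstream of URA3, was higher in RM11-1a than in BY4741 by 1.99 on the log2 scale although both are labelled ura3Delta0 (edgeR adjusted p = 0.0135). TRP1 was at 8.49, 9.48, 13.4 and 9.63 CPM in W303 (trp1-1) and at 27, 31.3, 23.2 and 26.2 in CEN.PK2 (trp1-289), a difference of -1.73 (SE 0.269, edgeR adjusted p = 0.000929). The neighbour SOK1 was higher in W303 than in CEN.PK2 in mean CPM, the opposite order to TRP1, and that pair was not called for it.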

How the results depend on the processing

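LEU2, MET17, URA3 and TRP1 kept their direction and call in every alternative run. GEA2 lost its call with the length offset (-0.0016) and in 6 of 20 fits that left out a library. Values near 0 changed sign without a call: NFS1 -0.0045 and SOK1 0.0091 at a mean of at least 10 CPM, MRM1 -0.065 and DED1 -0.065 with the library series block, MRM1 -0.0031 with the length offset, DED1 -0.080 and SOK1 0.012 against D273-10B only. Against D273-10B only, GAL3 was -1.65 (adjusted p = 0.0458) and HIS3 -1.01. With W303 among the carriers HIS3 was -1.36 (adjusted p = 0.00576).

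Counts of flanking genes called moved as follows. At 5 kb MET17 and TRP1 had 0. At 20 kb LEU2 had 2, HO 2 and URA3 3. DESeq2 gave 1 at LEU2 and 3 at TRP1. No filter gave 0 at MET17, and the filter of 10 CPM gave 1 at URA3, where GEA2 was not tested. The length offset gave 1 at LEU2, 1 at URA3, 1 at HO and 3 at TRP1. Against D273-10B only there were 1 at URA3, 1 at HO, 1 at HIS3 and 3 at TRP1. The cause of these moves was not tested, apart from the windows and filters, which change the genes tested.

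Leaving out 1 library gave log2 ranges of -0.068 to 0.28 for NFS1, -0.63 to -0.50 for GEA2, -0.50 to -0.13 for STT4, 0.02 to 0.23 for GCS1, -0.13 to 0.16 for MRM1, -0.31 to 0.65 for DED1, -0.093 to 0.047 for SOK1, -0.020 to 0.48 for ACO1, -12.06 to -11.88 for LEU2, -10.76 to -9.78 for MET17 and -7.71 to -1.07 for HO. Called flanking genes ranged over 0 to 2 at LEU2, URA3 and MET17, 0 to 1 at HO, 0 to 0 at HIS3 and 1 to 2 at TRP1. The only library whose omission made HO called was RM11-1a replicate 2.

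Replicate numbers are shared across strains but did not pair the libraries: correlations of same-numbered libraries ran from -0.356 to 0.382, and 4 of 20 libraries correlated best with their own number. With the replicate block GEA2 was -0.57 (adjusted p = 0.0479), TIM9 -0.91 (adjusted p = 0.0274) and HO -2.86 (adjusted p = 0.127), and no call changed. GEA2, at a mean under 10 CPM, could not be tested under that filter.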

Other observations

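YOR203W, an identifier in the table with no entry in the RefSeq annotation of R64, was singled out after its values were seen. It stood at 72.0, 61.0, 26.9 and 19.2 CPM in BY4741 and at 3.22, 1.31, 2.57 and 1.20 in W303. All W303 libraries were below all BY4741 libraries. The difference was -4.40 on the log2 scale (edgeR adjusted p = 0.00224). W303 was also lower than CEN.PK2 by -3.56 (adjusted p = 0.0119), than D273-10B by -3.33 (adjusted p = 0.00787) and than RM11-1a by -3.53 (adjusted p = 0.00487). Its position is not given here. HIS3 was lowest in W303 as well, at 70.3 ± 8.67 CPM (SD, n = 4).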
